A study of Homo sapiens with 8 samples.

Results

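The 9 genes described here encode core factors of nonsense-mediated mRNA decay: UPF1, UPF2, UPF3A, UPF3B, SMG1, SMG5, SMG6, SMG8 and SMG9. They were chosen by name, as the rows of a deposited raw count table whose Ensembl identifiers carry these symbols, and all 9 were found among 58787 identifiers. The table comes from IMR32, an established human neuroblastoma line with amplified MYCN, labelled wild type, neuroblast and brain. Per the labels, 4 libraries come from cells given CR31B at its IC50 and 4 from cells given the vehicle, 0.1% DMSO, with RNA taken at 6 h. CR31B is a rocaglate, a compound that clamps the RNA helicase eIF4A onto messenger RNA and so blocks translation initiation. All libraries share 1 cell line, 1 time point and no genetic change, and no further dose of the compound is given, so the values describe this line under these conditions only. The series title asks about the translational program that eIF4A controls in MYCN-driven neuroblastoma.

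Nonsense-mediated decay removes messages on which a ribosome stops in the wrong surroundings, classically upstream of an exon junction or far from the poly(A) tail. UPF1 is the helicase at its centre. UPF2 and UPF3B (or its paralogue UPF3A) link UPF1 to the exon junction complex, the kinase SMG1 with its partners SMG8 and SMG9 phosphorylates UPF1, and phosphorylated UPF1 recruits the endonuclease SMG6 and the adaptor SMG5. Because a ribosome must reach the stop codon, the pathway needs translation. In other human cells it also acts on the messages of its own factors, among them UPF1, UPF2, UPF3B, SMG1, SMG5 and SMG6, which rise when decay is impaired.

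Since the pathway reads the stop codon and what follows it, the end of each coding region is shown first, from the GENCODE release 29 reference transcripts (GRCh38). Each line holds 15 coding bases, the stop codon in capitals and the first 12 bases after it, 5′ to 3′ on the strand of the gene.
UPF1: gggctgtcccagtatTAAaaggtggcggcg
UPF2: ggtgggaggagacgtTGAtccagcagcacg
UPF3A: agggaagaggcagagTGAgtcactgcacgc
UPF3B: gaaggaggagaggagTGAtaagtccagatg
SMG1: tggacagcctgggtgTGAatggcaagacag
SMG5: tggaaggaaattggtTGAtactgaccccca
SMG6: tgggcccaggtgggcTGAgggagccacact
SMG8: aaggcagtaacacaaTAAgtgttttccagc
SMG9: agccgcctgctggccTGAggccaaggagag
The stop is TGA in 7 of the 9 and TAA in UPF1 and SMG8. These stops lie at chr19:18866161-18866163 (+) for UPF1, chr10:11921298-11921300 (-) for UPF2, chr13:114304915-114304917 (+) for UPF3A and chrX:119834878-119834880 (-) for UPF3B. For the SMG genes they lie at chr16:18809569-18809571 (-) for SMG1, chr1:156250587-156250589 (-) for SMG5, chr17:2061492-2061494 (-) for SMG6, chr17:59215000-59215002 (+) for SMG8 and chr19:43731596-43731598 (-) for SMG9. In none of these 9 transcripts does an exon junction lie more than 50 bases after the stop, the classic mark of a decay target. Of the 12973 tested coding genes 0.362% carry it in theirs. Reference transcripts were picked only among those annotated as protein-coding, so those of the annotated nonsense-mediated decay class were left out beforehand. This count and share therefore say little about the genes. The 3′ UTR after the stop ranges in length from 237 bases in SMG8 to 4716 in SMG1.

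Total counts ran from 43687828 to 64715535 per library, and the 9 genes together took 0.0744% to 0.0974% of them. By their labels the 2 libraries of replicate 1 are paired-end, and the 6 of replicates 2 to 4 are single-end. On the first principal component (51.8% of the variance) the replicate 1 library of each label lay on the side of the other label's single-end libraries, so each result below is given for all 8 libraries as labelled, for the 6 single-end libraries and for replicate 1 apart. All 11 markers of adrenergic neuroblastoma were at 1 CPM or more in every library. CPM are counts divided by the library total, scaled by the TMM method. Their summed level was 5510 to 7010 in CR31B and 5220 to 6908 in DMSO, although TH reached only 3.03. Single markers moved both ways within these sums, with single-end log2 fold changes from -0.98 (DBH) to 1.78 (GATA3). Leukocyte markers summed to 1.09 CPM or less and the endothelial and epithelial lists to 2.61 or less, with CD3E and KRT5 at 0. The fibroblast list reached 32.1, mostly from COL1A1 (16.6 to 30.6), and its part in the results was not tested. In bulk RNA a change in the number of cells of a kind and a change in RNA per cell cannot be told apart.

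In the 6 single-end libraries most of the decay factors rose with CR31B. UPF1, UPF2, UPF3A, UPF3B, SMG1, SMG6 and SMG9 passed the test and were higher (edgeR quasi-likelihood test, adjusted p under 0.05 over all tested genes), by 1.22-fold (UPF3A) to 1.76-fold (SMG9). SMG5 and SMG8 did not pass. The count of 7 of 9 called higher stands beside 23.8% of all 16696 tested genes called higher and 17.6% called lower, that is 41.3% called in all. With the replicate number as a block the same count was 7 of 9, beside 28.1% of tested genes. The median log2 fold change of the 9 was 0.52, against -0.007 over all tested genes. In the same 7 genes the lowest CR31B library lay above the highest DMSO library, an arrangement that 27.7% of tested genes showed in this direction and 24.4% in the other.

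With all 8 libraries as labelled, 0 of the 9 were called, as were 0% of the 16518 tested genes. At an unadjusted p under 0.05 edgeR called 0 of the 9 and 1.24% of all genes, and DESeq2 and limma voom also called 0 of the 9 at an adjusted p under 0.05. The estimates lay between -0.08 (SMG8) and 0.38 (SMG9), with an adjusted p of 0.707 for 7 genes, 0.714 for SMG8 and 0.970 for SMG5. Within replicate 1 all 9 differences had the opposite sign to the single-end estimate, as did 84.3% of tested genes. The test of that contrast, the interaction of treatment and layout, was passed by 7 of the 9 and by 42.5% of tested genes, with its spread taken from the single-end libraries. Layout and replicate 1 are the same 2 libraries and cannot be told apart. Whether the labels of these 2 libraries were exchanged was not tested, they were used as given, and every replicate 1 difference, the fit of all 8 libraries and the interaction rest on them.

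**Figure D1:**
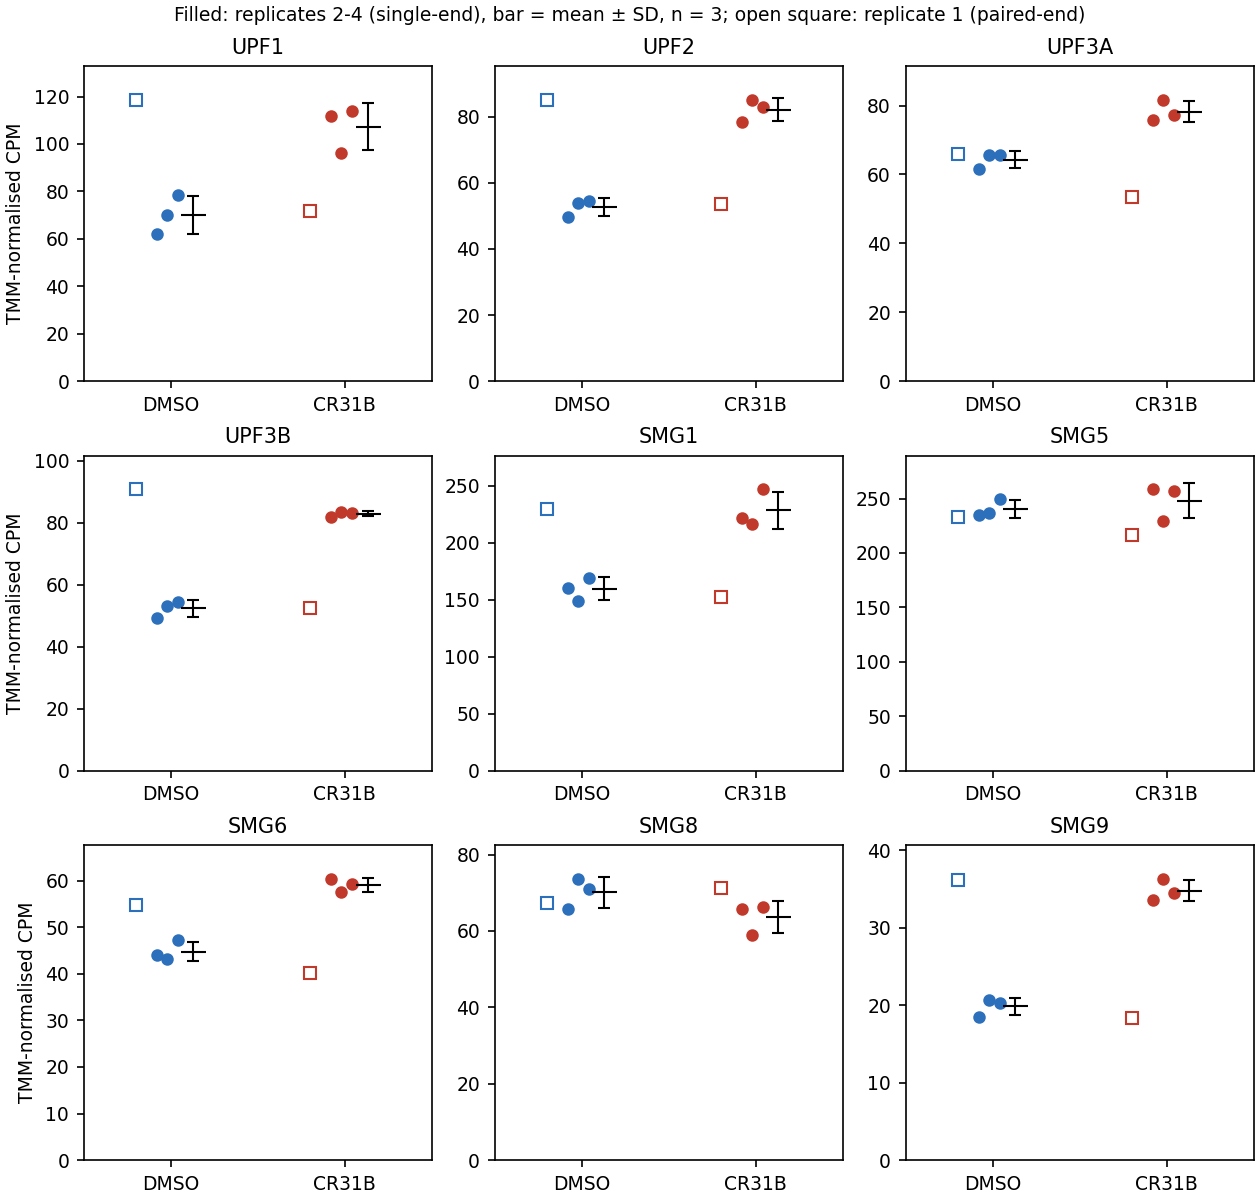
TMM-normalised CPM of the 9 genes in each library, with the axis from 0. Filled points are replicates 2 to 4 with their mean and SD (n = 3) beside them, and open squares are replicate 1. In 7 panels the filled CR31B points lie above the filled DMSO points and the open squares stand the other way round, while SMG5 and SMG8 overlap.

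UPF1 (ENSG00000005007, chr19:18831938-18868236), the helicase that all branches of the pathway need, stood at 112, 96.1 and 114 CPM in CR31B replicates 2 to 4 and at 62.0, 69.9 and 78.3 in the matching DMSO libraries. The groups did not overlap, although UPF1 had the widest relative spread of the 9 in DMSO, with a coefficient of variation of 11.6%. The log2 fold change was 0.62 ± 0.089 (SE, 3 against 3 libraries), 1.53-fold, with an edgeR adjusted p of 0.000346. In replicate 1 the library labelled CR31B held 71.9 and that labelled DMSO 118.5, a log2 difference of -0.72.

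UPF2 (ENSG00000151461, chr10:11920022-12043170) bridges UPF1 and the UPF3 proteins. Its CR31B libraries 2 to 4 held 78.2, 85.0 and 82.9 CPM and its DMSO libraries 49.5, 54.0 and 54.4, again without overlap. The estimate was 0.64 ± 0.057 on the log2 scale (edgeR adjusted p 1.41e-05). Replicate 1 held 53.6 under the CR31B label and 85.0 under the DMSO label, so each fell within the range of the other label's single-end libraries.

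The paralogues UPF3A and UPF3B, which bind UPF2 and the exon junction complex, moved by different amounts. UPF3B (ENSG00000125351, chrX:119805311-119852998), the more active of the pair in decay, rose from 49.4, 53.2 and 54.4 CPM in DMSO to 82.0, 83.6 and 83.1 in CR31B. These 3 CR31B values are the tightest of any member, with a coefficient of variation of 1.01%, and the log2 fold change was 0.66 ± 0.052 (edgeR adjusted p 6.75e-06). UPF3A (ENSG00000169062, chr13:114281584-114305817) rose from 61.5, 65.6 and 65.8 to 75.9, 81.6 and 77.1, a log2 fold change of 0.29 ± 0.053 (edgeR adjusted p 0.00161) and the smallest among the 7 that passed. In replicate 1 UPF3B held 52.4 (CR31B) and 90.8 (DMSO). UPF3A behaved differently there: its DMSO library, at 65.8, sat level with the single-end DMSO libraries, and its CR31B library, at 53.4, lay below all other 7 libraries. Annotated UPF3A pseudogenes UPF3AP1, UPF3AP2 and UPF3AP3 held 0.749% to 1.29% of the counts of the gene and its copies. UPF3AP1 and UPF3AP2 were tested and not called, and UPF3AP3 was too low to test.

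SMG1 (ENSG00000157106, chr16:18804853-18926454), the kinase of UPF1, held 222, 217 and 247 CPM in CR31B replicates 2 to 4 and 160.3, 149 and 169 in DMSO. The groups were separate, and the log2 fold change was 0.52 ± 0.066 (edgeR adjusted p 0.000146). Replicate 1 gave 152 under CR31B and 229 under DMSO. SMG1 has 7 annotated pseudogenes on chromosome 16 (SMG1P1 to SMG1P7), so reads may be split among copies. They held 5.63% to 5.98% of the counts of gene and copies in the single-end CR31B libraries and 8.14% to 9.22% in DMSO, and 0 of those tested was called, although SMG1P2 was lower with the replicate block (edgeR adjusted p 0.0488). The size of the SMG1 estimate depended on one choice: with offsets for GC content and transcript length it was 0.25 (edgeR adjusted p 0.00628), still called.

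SMG9 (ENSG00000105771, chr19:43727992-43754990) and SMG8 (ENSG00000167447, chr17:59209400-59215247) bind SMG1 in one complex and restrain it, and they marked the ends of the range. SMG9 rose from 18.5, 20.7 and 20.3 CPM in DMSO to 33.6, 36.3 and 34.5 in CR31B. This was the largest fold change of the 9, 0.81 ± 0.066 on the log2 scale (edgeR adjusted p 8.02e-06), and 96.1% of tested genes had a lower one. Its replicate 1 libraries held 18.3 (CR31B) and 36.2 (DMSO), a log2 difference of -0.98.

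SMG8 was the only one of the 9 with an estimate below 0 in the single-end libraries. It held 65.8, 59.0 and 66.4 CPM in CR31B and 65.7, 73.6 and 71.0 in DMSO, and the groups overlapped. The log2 fold change of -0.14 ± 0.064 did not pass (edgeR adjusted p 0.114), but it passed as lower under 4 of 20 alternative settings, for example at -0.23 with upper quartile scaling (adjusted p 0.00856). Without both libraries of replicate 3 it was -0.058 (adjusted p 0.487). Its same-numbered differences were 0.0019, -0.32 and -0.10 for replicates 2, 3 and 4, and 0.08 in replicate 1. Of its exonic bases 11.2% are shared with AC099850.2 on the same strand, so some reads could belong to either.

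Past the kinase, the factors that phosphorylated UPF1 recruits differed as well. SMG6 (ENSG00000070366, chr17:2059839-2303771), the endonuclease that cuts the message near the stop, held 60.3, 57.5 and 59.3 CPM in CR31B and 44.0, 43.2 and 47.2 in DMSO. Without overlap between the groups, its log2 fold change was 0.40 ± 0.054 (edgeR adjusted p 0.000228). Replicate 1 held 40.1 (CR31B) and 54.8 (DMSO). Other genes on the opposite strand (AC090617.2, HIC1 and SRR) cover 25.4% of its exonic bases. The name of the deposited counts holds the word reverse, which may mean that strand was used, but the setting is not stated.

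SMG5 (ENSG00000198952, chr1:156249224-156282825), an adaptor that leads to deadenylation and decapping, was the most abundant of the 9 and moved least. It held 258, 229 and 256 CPM in CR31B and 235, 237 and 249 in DMSO, with overlap, and its log2 fold change was 0.05 ± 0.059 (edgeR adjusted p 0.554). The sign turned to negative under upper quartile and total count scaling. In replicate 1 SMG5 stood at 216 (CR31B) and 233 (DMSO).

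**Figure D2:**
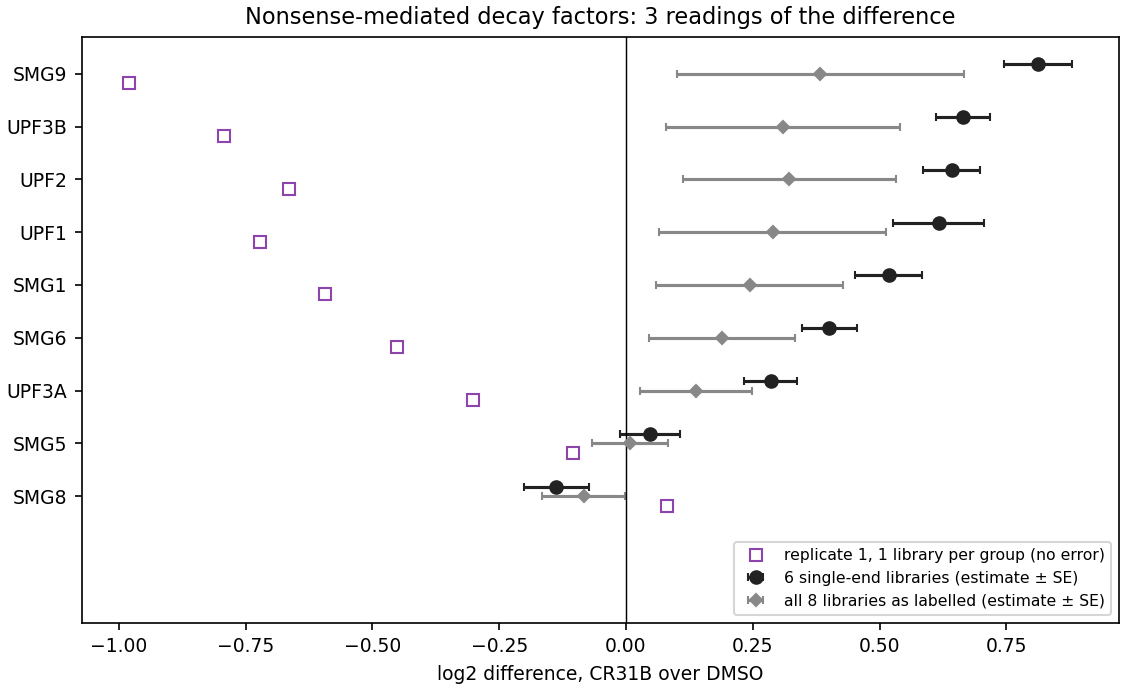
Log2 difference of CR31B over DMSO for each gene, sorted by the single-end estimate. Black circles are the 6 single-end libraries and grey diamonds all 8 libraries (estimate ± SE), and open squares are replicate 1, with 1 library per label and no error. Squares and circles lie on opposite sides of 0 for all 9 genes, and the grey estimates lie between them with wide errors.

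Per kilobase of reference transcript, in the single-end DMSO libraries, the order of levels was SMG5, UPF3A, UPF3B, SMG8, UPF1, SMG1, UPF2, SMG6 and SMG9. SMG5 was at 52.7 ± 1.77 CPM per kb (SD, n = 3) and SMG9 at 3.60 ± 0.21. Neighbours overlapped for UPF3B (22.0 ± 1.1) with SMG8 (20.2 ± 1.15), and for SMG1 (9.90 ± 0.62) with UPF2 (9.45 ± 0.48). The other neighbours did not overlap: UPF3A was at 26.9 ± 1.02, UPF1 at 13.1 ± 1.52 and SMG6 at 7.51 ± 0.35. In CR31B the mean of UPF3B (34.9 ± 0.35) lay above that of UPF3A (32.8 ± 1.26) and the mean of UPF1 (20.1 ± 1.82) above that of SMG8 (18.3 ± 1.19), each the reverse of the DMSO order, although the libraries of UPF1 and SMG8 overlapped. The means of UPF2 (14.7 ± 0.62) and SMG1 (14.2 ± 1.0) also changed places, with libraries that overlapped in both groups. SMG5 and SMG9 kept the ends of the order, at 54.4 ± 3.58 and 6.32 ± 0.25.

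Ratios of genes within one library do not depend on how libraries are scaled, and 5 of them, chosen after the values were seen, were computed as log2 of counts with 1 added. SMG9 over SMG8 was -0.97, -0.70 and -0.94 in CR31B replicates 2 to 4 and -1.82, -1.83 and -1.81 in DMSO. Its mean rose by 0.95, from -1.82 ± 0.011 to -0.87 ± 0.15 (SD, n = 3), while replicate 1 differed by -1.06. UPF3B over UPF3A was 0.11, 0.04 and 0.11 in CR31B against -0.32, -0.30 and -0.27 in DMSO. That pair differed by 0.38 in replicates 2 to 4 and by -0.49 in replicate 1, where the DMSO library, at 0.46, was the highest of all 8.

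SMG1 over SMG8 differed by 0.65 and SMG6 over SMG5 by 0.36 in the same libraries, each with groups that did not overlap. UPF2 over UPF1 differed by 0.02, from -0.41 ± 0.10 in DMSO to -0.38 ± 0.18 in CR31B. With 3 libraries against 3 the exact two-sided permutation test, which ignores replicate numbers, cannot go below 0.10. This is the value for the 4 ratios without overlap (0.80 for UPF2 over UPF1). Over all 8 libraries exact p ran from 0.314 to 0.743 and adjusted over the 5 ratios from 0.619 to 0.743. The smallest p that this unpaired test allows there is 0.0286.

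**Figure D3:**
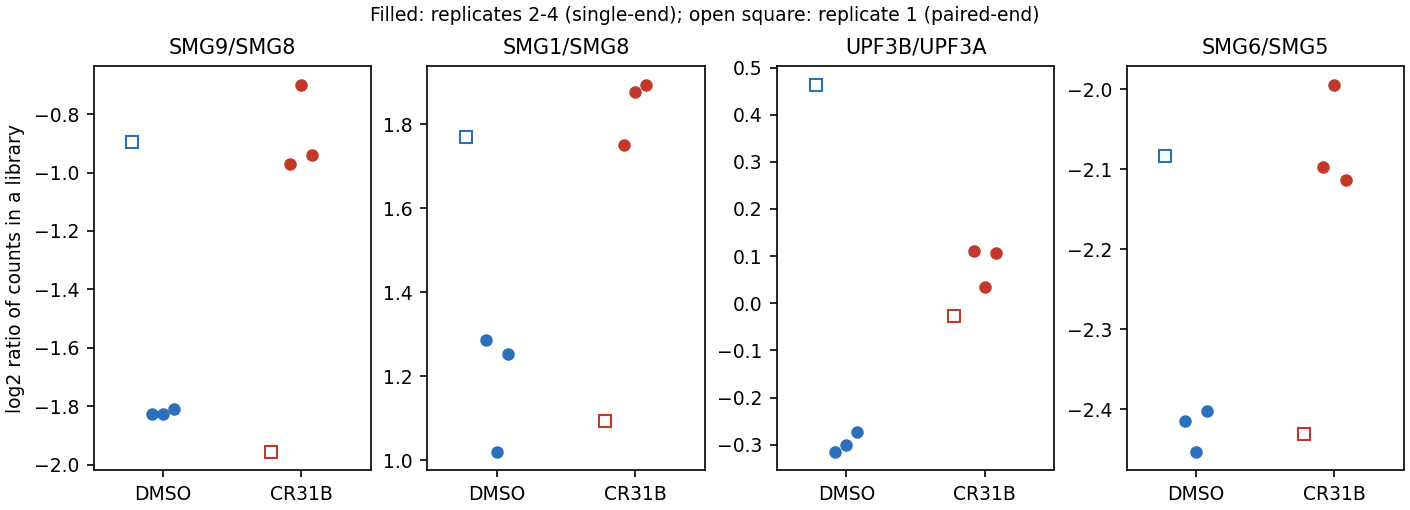
Log2 ratio of counts within each library for 4 of the ratios (axes do not start at 0 and differ between panels). Filled points are replicates 2 to 4 and open squares replicate 1. Filled CR31B points lie above filled DMSO points in each panel, and the open squares stand in the opposite order.

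Beyond the 9, other factors tied to the pathway were mixed (values in parentheses here are single-end log2 fold changes). Of 16 (release factors, cap-binding proteins and UPF1 partners), 7 were higher, 1 was lower and 8 were not called in the single-end libraries, with a median log2 fold change of 0.10. Each list count here and in the paragraphs that follow stands beside 23.8% of all tested genes called higher and 17.6% called lower. The 8 of 16 called in this list are near the 41.3% called in all. Those named are GSPT1, the release factor eRF3a (0.64), STAU2, an RNA-binding protein of Staufen-mediated decay (0.59), MOV10, a helicase that binds UPF1 (0.58), and PNRC2, which links UPF1 to decapping (0.38). The 10 exon junction complex genes gave 1 higher and 3 lower, with a median of -0.04. CWC22, which loads the core factor EIF4A3, was higher (0.48), and the core factor CASC3 (-0.27), MAGOHB (-0.22) and the peripheral factor ACIN1 (-0.18) were lower.

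SMG1 belongs to the PIKK family of large kinases, which need dedicated chaperones. Of its 6 members 3 were called, all higher, with SMG1 (0.52) above ATM (0.30) and ATR (0.29), the DNA damage kinases. Among 9 assembly factors 3 were higher and 2 lower, with a median of -0.02. TELO2 (0.31), TTI1 (0.31) and TTI2 (0.30), which form the complex that stabilises PIKK proteins, were the 3 that rose, while the chaperone HSP90AA1 fell by 0.59 on the log2 scale.

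For the decay machinery downstream the medians were near that of all genes. Decapping and 5′ to 3′ decay gave 7 higher and 6 lower of 16 (median -0.0014), with the helicase DDX6 (0.68) and the decapping activator DCP1A (0.39) higher, and LSM3 of the LSM ring (-0.35) and the nuclear exonuclease XRN2 (-0.31) lower. The exosome, Ski and ribosome rescue list gave 4 higher and 3 lower of 17 (median -0.0069). PELO, which splits stalled ribosomes, was higher (0.78), as was TTC37 of the Ski complex (0.44), and the exosome subunits EXOSC5 (-0.26) and EXOSC10 (-0.23) were lower.

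Messages described as decay targets in other cells did not move as one group. Of 17 coding ones 14 were tested (GADD45B, UPP1 and GABARAPL1 were too low), and 8 were higher (23.8% of all tested genes were) and 1 lower, with a median of 0.36. SESN2, a stress-induced regulator of mTORC1, was the furthest, at 32.9, 36.7 and 39.9 CPM in CR31B replicates 2 to 4 against 9.57, 10.7 and 12.1 (log2 fold change 1.76). ATF3 (1.19), TRIB3 (1.16) and GADD45A (0.71) followed. These 4 are also known targets of the ATF4 stress branch, and the list cannot tell decay and transcription apart. The coding gene called lower was PPP1R15A (log2 fold change -0.47, edgeR adjusted p 0.000503). Of 10 noncoding ones, mostly snoRNA hosts, 0 were higher and 3 lower (17.6% of all tested genes were lower): SNHG15 (-0.38), EPB41L4A-AS1 (-0.26) and SNHG16 (-0.23), with a median of -0.12. Reads of an antisense RNA such as EPB41L4A-AS1 cannot be told from those of its partner unless strand was counted. Each gene given with a fold change from these lists had an edgeR adjusted p of 0.0283 or lower in the single-end fit. With all 8 libraries 0 genes of these lists were called by edgeR, DESeq2 or limma voom, none of which called any gene in that fit, and 0 had an unadjusted edgeR p under 0.05.

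**Figure D4:**
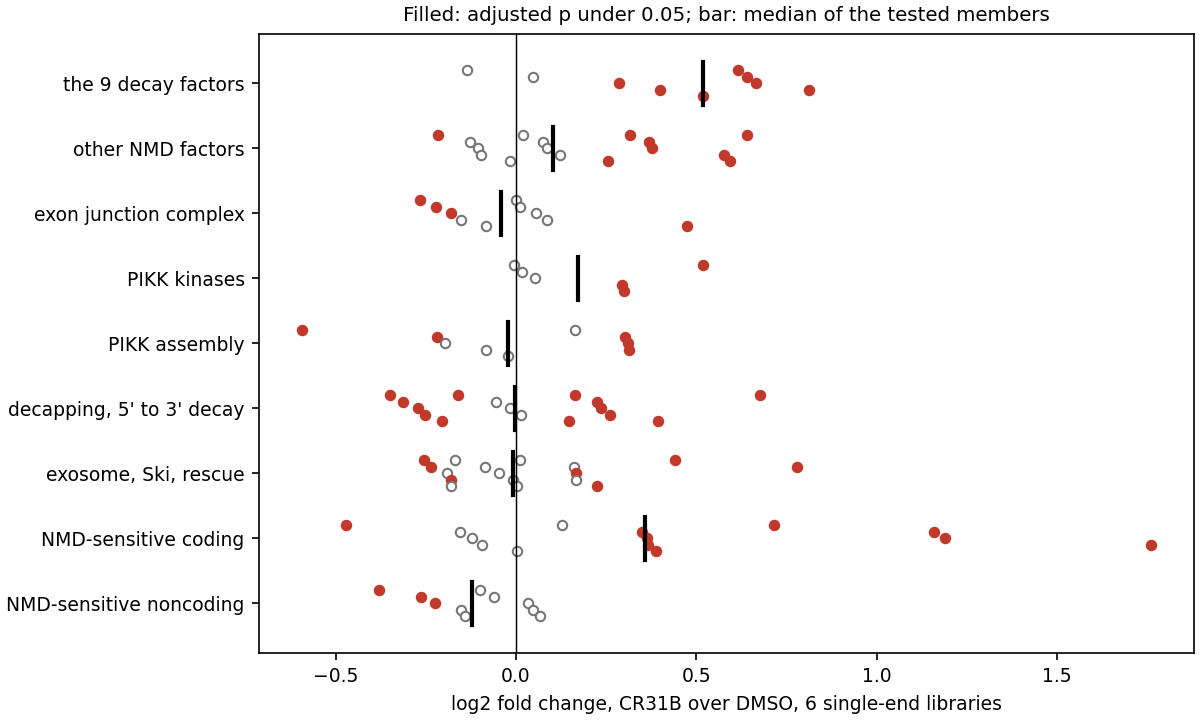
Log2 fold change in the 6 single-end libraries of each tested gene, by list (filled: adjusted p under 0.05; black bar: median). The 9 decay factors have a median of 0.52 and the coding decay targets of 0.36, and the exon junction, assembly, decapping and exosome lists lie on both sides of 0 with medians from -0.04 to -0.0014.

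Among the reference transcripts SMG8 had the shortest 3′ UTR. Its 237 bases are fewer than in any other member's, and 13.2% of tested coding genes have fewer (the median is 1131). UPF3B has 856, UPF3A 900, UPF2 1276, SMG5 1363, SMG6 1649, UPF1 1719, SMG9 3604 and SMG1 4716. SMG8 also has the fewest exons, 5 against a median of 9 over tested coding genes, and SMG1 the most, 63. These are lengths of 1 reference transcript per gene: over the complete coding transcripts of a gene they run from 504 to 4716 in SMG1, from 584 to 3604 in SMG9, from 87 to 1649 in SMG6 and from 139 to 900 in UPF3A, and from 226 to 245 in SMG8. SMG1, SMG8 and SMG9 each have 1 annotated transcript of the nonsense-mediated decay class, which 42.1% of tested coding genes have. Before the coding region, the reference transcript holds 13 ATG codons in UPF2 and 1 each in SMG1, SMG5 and SMG9. It holds 0 in UPF1, UPF3A, UPF3B, SMG6 and SMG8, and 54.0% of tested coding genes have an upstream ATG. Over the complete coding transcripts the count runs from 1 to 13 in UPF2, 1 to 5 in SMG1 and 0 to 7 in SMG6.

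Over all tested coding genes, cut into 4 about equal parts by 3′ UTR length, the median single-end log2 fold change was -0.07, 0.0068, 0.04 and 0.12 from the shortest to the longest part. The share called higher was 19.1%, 25.6%, 31.3% and 39.3%. In replicate 1 the medians ran the other way, 0.05, -0.0051, -0.05 and -0.12. SMG8 lies in the shortest part and SMG1 and SMG9 in the longest, and SMG5 (0.05) stood near the median of its own part. The 7 members called higher stood above theirs, but they were picked for their rise. Their place above the medians therefore says nothing about 3′ UTR length.

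**Figure D5:**
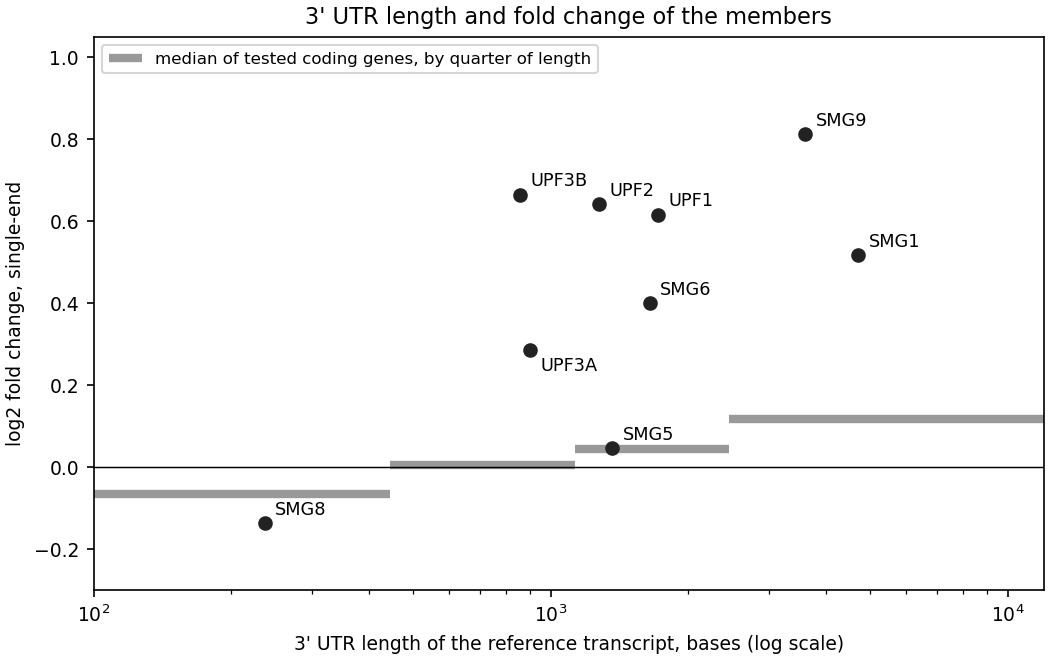
Single-end log2 fold change of the 9 genes against the 3′ UTR length of the reference transcript (log axis). Grey bars are medians of all tested coding genes in 4 about equal parts by length, with limits at 445, 1131 and 2456 bases. SMG8 has the shortest 3′ UTR and the lowest value, and the 7 genes called higher, picked for their rise, lie above the grey bars.

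Promoters were read for 8 of the 9 genes from RefSeq (GRCh38.p14), as the 250 bases before the start. Each window was searched on both strands for CACGTG (the E-box bound by MYC proteins), CGCATGCG (core of the NRF1 motif), CTCGCGAG (core of the ZBTB33 motif), CCGGAAG (ETS factors), TGACGTCA (cyclic AMP response element) and TGATGNAAN (ATF4 composite element), where N is any base; the 2 cores stand in for longer forms searched first. The paralogues UPF3A and UPF3B both hold CTCGCGAG, from position -13 and from -120 before the start, and 0.874% of 35116 promoters of that length hold it. SMG9 holds CGCATGCG from -56 (1.73% of promoters), UPF2 holds CACGTG from -237 (6.34%), and UPF3A also holds CCGGAAG from -196 (8.52%). As the 2 cores were taken up after longer forms, they were not fixed beforehand, and their matches are a description only. No match was found in the windows of UPF1, SMG1, SMG5 and SMG6, and TGACGTCA (1.65%) and TGATGNAAN (3.13%) were in none of the 8. The windows of the paralogues and of SMG9, the gene with the largest rise, are printed with these letters in capitals: UPF3A at chr13:114281351-114281600 (+), UPF3B at chrX:119852964-119853213 (-) and SMG9 at chr19:43754963-43755212 (-).
UPF3A: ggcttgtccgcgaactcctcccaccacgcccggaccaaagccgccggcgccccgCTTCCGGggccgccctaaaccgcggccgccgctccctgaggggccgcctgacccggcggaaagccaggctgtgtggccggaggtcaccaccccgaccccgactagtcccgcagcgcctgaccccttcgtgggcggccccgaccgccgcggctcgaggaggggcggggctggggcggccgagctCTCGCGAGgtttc
UPF3B: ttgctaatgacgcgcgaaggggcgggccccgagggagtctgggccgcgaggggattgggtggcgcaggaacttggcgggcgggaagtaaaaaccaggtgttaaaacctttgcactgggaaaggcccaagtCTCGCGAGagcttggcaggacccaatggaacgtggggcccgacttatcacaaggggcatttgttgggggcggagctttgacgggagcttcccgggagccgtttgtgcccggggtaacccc
SMG9: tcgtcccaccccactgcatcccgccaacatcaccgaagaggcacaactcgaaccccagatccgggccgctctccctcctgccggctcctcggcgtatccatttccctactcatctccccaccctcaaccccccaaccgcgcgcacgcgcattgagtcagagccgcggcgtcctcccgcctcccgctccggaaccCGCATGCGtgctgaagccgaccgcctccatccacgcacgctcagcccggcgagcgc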

How the data were processed

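Polyadenylated RNA of IMR32 cells was sequenced on a NextSeq instrument after preparation from 250 ng with 15 PCR cycles, per the labels, which name a small RNA kit. The authors deposited raw counts per Ensembl gene for 8 libraries, and all columns were used. The submitters' processing notes name FastQC 0.11.7, STAR 2.7.2b, edgeR 3.36.0, limma 3.50.3 and GRCh38. The counting tool and annotation are not given in the sources used here. The strand setting is not stated either, although the name of the deposited counts holds the word reverse, which may refer to it. Names and coordinates come from GENCODE 29 by identifier (58515 of 58787 matched).

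The test was the two-sided quasi-likelihood test of edgeR 4.0.16 under R 4.3.3 (filterByExpr, TMM, Benjamini-Hochberg over all tested genes, threshold 0.05). One fit took all 8 libraries with layout as a covariate, one the 6 single-end libraries, and one the interaction of treatment and layout. Replicate 1 has 1 library per group, so its difference (log2 CPM, prior count 1) has no test. The counts have no molecular identifiers, so depth covers counting error only. The design text calls the replicates biological, and p-values measure the spread between cultures of 1 line.

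Deviations from the group means of same-numbered single-end libraries correlated at 0.21, 0.39 and 0.16 and libraries of different numbers at 0.0937 or less. Equal numbers may therefore be pairs, and the replicate block treats them so. The main fits and the exact tests of the ratios are unpaired. The members and gene lists were chosen with earlier results of these data known. From each list up to 4 called genes with at least 5 CPM and the largest change are named, with the pseudogenes whatever their values, and the 3 genes most correlated with SMG9 and with SMG8. PPP1R15A, outside that choice, is named as the only coding target called lower. Alternatives were DESeq2 1.42.0, limma voom (limma 3.58.1), scaling by RLE, by the upper quartile or by totals, a looser and a stricter filter, GC and length offsets, the replicate block, pseudogene counts added, no layout term, and leaving out libraries. On simulated counts for 16696 genes with 200 changed, the single-end fit recovered 100% at a log2 change of 1 and 97% at the smaller change, with 11 false calls of 208. On 16518 genes the fit of all 8 libraries recovered 100%, with 7 false of 207. The simulated libraries all held the same change, with no layout effect and no reversed replicate 1. The simulation therefore does not give the power of that fit on these data. Protein sequences were not analysed here. A gene that the rule names is left out of the text and kept in the counts.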

Additional observations from a re-analysis of the deposited data

Results flagged for a closer look

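For 7 of the 9 genes the difference between CR31B and DMSO in replicate 1 differed from that in replicates 2 to 4. The edgeR adjusted p of the interaction was 0.000212 for UPF1, 1.29e-05 for UPF2, 0.00146 for UPF3A, 4.27e-06 for UPF3B, 9.32e-05 for SMG1, 0.000158 for SMG6 and 5.09e-06 for SMG9. For SMG5 and SMG8 it was 0.331 and 0.195. The same test was passed by 42.5% of all tested genes, and its cause was not tested.

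Within a group of 4 libraries, 1 library stood far from the other 3 in 7 of 18 tests, where chance would give 0.9. The share over all tested genes was not computed, so the count cannot be called particular to these genes. In 84.3% of tested genes the replicate 1 difference had the opposite sign to the single-end estimate. The gap to the nearest library as a share of the whole range, on log2 CPM, was 0.8292 for UPF3A, 0.9573 for UPF3B, 0.8821 for SMG6 and 0.886 for SMG9 in the CR31B group, each time for replicate 1. In the DMSO group it was 0.8404 for UPF3B and 0.8333 for SMG9, again for replicate 1. For UPF3A in DMSO it was 0.9454, where the distant library was replicate 2 at 61.5 CPM. DMSO replicates 1, 3 and 4 of UPF3A held 65.8, 65.6 and 65.8 CPM. That share was therefore high because these libraries were nearly equal, and the gap in level was small.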

How the results depend on the processing

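The 7 genes called higher in the single-end libraries kept that call under all 20 alternatives. With all 8 libraries the count of called genes was 0 in every alternative that kept both replicate 1 libraries. The count was 7, all higher, without CR31B replicate 1, without DMSO replicate 1 or without both. The range over left-out libraries was thus 0 to 7. Of all tested genes these fits called 41.6%, 41.1% and 41.3%. A replicate 1 library left alone is taken up by the layout term. These fits therefore all rest on the single-end libraries and are not separate checks. Genes called lower in the single-end libraries went from 0 to 1 (SMG8) with upper quartile scaling, with total count scaling, with a minimum of 1 CPM, and with the replicate block with GC and length offsets. The replicate block alone changed no call of the 9 (7 higher and 0 lower in the single-end libraries, 0 with all 8), and raised the share of all genes called higher from 23.8% to 28.1%. SMG8 passed the interaction test with upper quartile (0.43) and total count (0.39) scaling only.

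SMG5 had no stable sign. With all 8 libraries its log2 fold change was 0.0084, and it turned to -0.033 with upper quartile and -0.026 with total count scaling, -0.0024 with no filter, -0.00088 with a minimum of 1 CPM, -0.0040 with GC and length offsets and -0.0050 with the block added to them. It was -0.018 without CR31B replicate 2, -0.015 without CR31B replicate 4, -0.0070 without DMSO replicate 2, -0.0063 without DMSO replicate 3 and -0.036 without both libraries of replicate 2, in a range up to 0.048. In the single-end libraries it was -0.049 (upper quartile) and -0.032 (total count), its interaction 0.058 and 0.023 under the same scalings, and its replicate 1 difference 0.011 with upper quartile scaling. Against TMM these scalings moved the median of all genes by -0.095 and -0.078. The cause was not tested.

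Over the fixed lists 51 genes were called in the single-end libraries, and 29 without both libraries of replicate 4, where fewer libraries were left. Of all tested genes these fits called 41.3% and 23.4%. The exosome list gave 7 calls, against 11 with upper quartile scaling, 12 with the replicate block, 4 without DMSO replicate 3 and 2 without both libraries of replicate 4. In the same order these alternatives called 45%, 51.1%, 34.9% and 23.4% of all tested genes. Without both libraries of replicate 4 the decapping list went from 13 to 5, the assembly factors from 5 to 3 and the noncoding targets from 3 to 1. With the block and offsets the latter lists gave 8 and 5, and 50.3% of all tested genes were called. Other prior counts for the ratios, chosen after seeing the data, moved SMG9 over SMG8 only from 0.9476 to 0.9500.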

Other observations

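Over all 8 libraries the genes whose log2 CPM followed SMG9 most closely, among 9630 with at least 10 CPM, were the splicing factor SF3A3 (Pearson r 0.9991), the zinc finger gene ZNF623 (0.9983) and METTL14, a subunit of the m6A methyltransferase (0.998). Their single-end log2 fold changes were 0.64, 0.60 and 0.93 and their replicate 1 differences -0.72, -0.67 and -1.03. SMG8 was followed most closely by MPHOSPH10, a factor of ribosomal RNA processing (0.9888), TANGO6 (0.981) and LSG1, a GTPase of large ribosomal subunit maturation (0.9702), with fold changes of -0.11, -0.12 and -0.15. These genes were picked for their correlation, and the 8 libraries share the split between the groups. Among the 7 members called higher, r ran from 0.66 to 0.99 over 21 pairs, and with SMG8 each of the 7 gave an r from -0.67 to -0.42. The 8 pairs with SMG5 gave an r from -0.03 to 0.61. As the 7 were picked for their rise in libraries that are part of these 8, their r values are no separate result.

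Of the SMG1 pseudogenes with counts, SMG1P2 and SMG1P7 were lower in the single-end CR31B libraries without overlap, at log2 fold changes of -0.26 each that did not pass (edgeR adjusted p 0.0922 and 0.178; with the replicate block SMG1P2 passed, at 0.0488, and SMG1P7 did not, at 0.0961), while SMG1 itself rose. SMG1P1, SMG1P3, SMG1P4 and SMG1P5 overlapped between the groups and SMG1P6 was too low to test.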
